A study of Mus musculus with 21 samples.

Results

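The comparison described here sets mouse embryonic stem cells differentiated for 5 days with vitamin B6 against the same cells differentiated for 5 days with vehicle. Its members are 6 of the 21 RNA-seq libraries of the series: 3 labelled VB6 day 5 and 3 labelled vehicle day 5, chosen by their column names. The VB6 libraries came from E14 cells, an established mouse embryonic stem cell line, given 20 µM pyridoxine. The vehicle libraries came from E14 cells kept for the same time with vehicle alone. No genetic change is labelled in either group, and both descend from the same line. The other 15 libraries are the undifferentiated cells and both arms at day 3 and day 7, with 3 libraries in each group. The labels do not say how differentiation was started. They also do not say that the 3 libraries of a group are separate cultures. Every p-value below therefore measures only the spread between libraries within groups, which edgeR estimated over all 7 groups.

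Pyridoxine is the alcohol form of vitamin B6. Cells phosphorylate it with pyridoxal kinase (Pdxk) and convert it further to pyridoxal phosphate, the cofactor of many transaminases, decarboxylases and enzymes of serine, glycine and sulphur amino acid metabolism. Embryonic stem cells that leave the naive state pass through a formative state, marked by Otx2 and Fgf5, before they form germ layers and extraembryonic-type cells. Visceral endoderm is the absorptive and secretory layer around the early embryo that makes alpha-fetoprotein, transthyretin and apolipoproteins, and its genes overlap widely with those of fetal liver. Parietal endoderm is its sister layer, known for secreting a thick basement membrane of laminins and type IV collagen.

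The vehicle day 5 libraries stood apart from most of the series in library structure. The fragment length implied by count, FPKM and library total was 308, 314 and 316 nt in the VB6 libraries, against 225, 221 and 238 nt in the vehicle libraries. The means were 312.6 ± 4.27 nt in VB6 and 228 ± 8.68 nt in vehicle (SD, n = 3 each). At day 7 the shorter fragments were in the other arm, with a mean of 267 nt in VB6 libraries. The count-weighted mean GC content was 49.3 ± 0.22% in VB6 libraries and 47.5 ± 0.135% in vehicle libraries. Ribosomal protein genes took 6.22 ± 0.52% of counts in VB6 and 3.54 ± 0.17% in vehicle, while mitochondrially encoded genes took 2.41 ± 0.27% in VB6 and 4.33 ± 0.22% in vehicle. In each of these 4 properties the groups did not overlap, and the exact two-sided permutation test gave p = 0.1, the smallest that 3 against 3 libraries allow. Between libraries of a group, a chi-square statistic of their counts, per gene, was 9.27 and 7.02 for VB6 replicate 3 against replicates 1 and 2, 3.17 between those, and 2.78 to 4.66 among vehicle libraries, so VB6 replicate 3 lay furthest from its group. Without it the calls described next numbered 9770 uncorrected and 5389 corrected. The labels name total RNA and also an enrichment for small RNAs, so the kind of library could not be settled, which bears on noncoding, histone and mitochondrial values. Total counts were 15882380 to 20713471 counts in VB6 libraries and 17416073 to 18326326 counts in vehicle libraries.

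**Figure D1:**
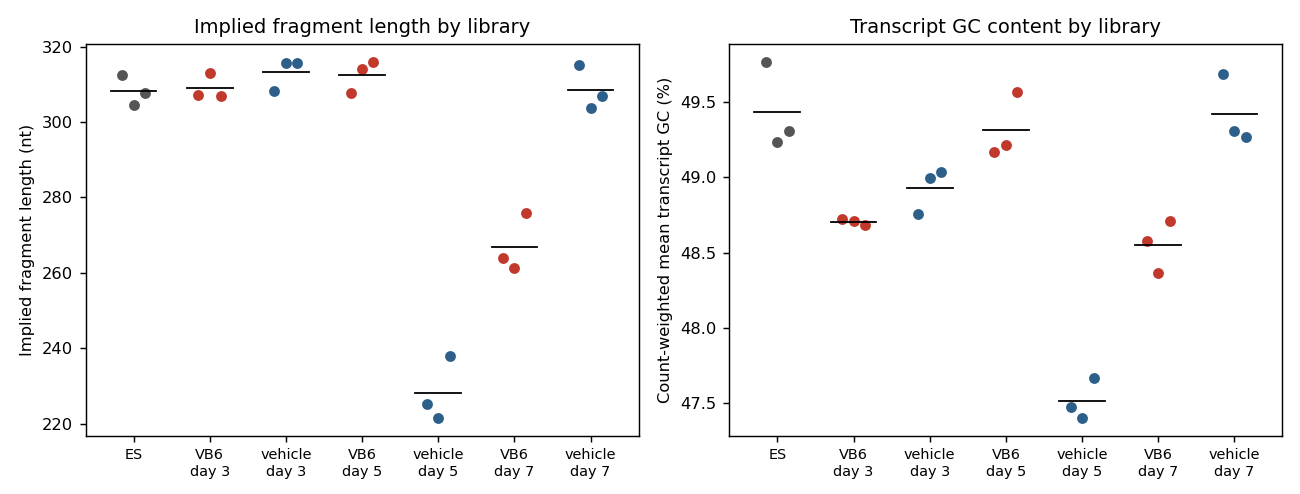
Implied fragment length (nt, left) and count-weighted mean transcript GC content (%, right) of all 21 libraries by group; points are libraries, bars are group means, and the axes do not start at 0. The VB6 day 5 libraries lie at 308 to 316 nt and the vehicle day 5 libraries at 221 to 238 nt, while at day 7 the shorter fragments are in the VB6 arm.

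Because of this split each gene was fitted both on the deposited counts and with a per-library correction for GC content and effective length. A gene is called here where edgeR's quasi-likelihood test, with Benjamini-Hochberg adjustment over all tested genes, gave an adjusted p under 0.05. Without the correction 10716 of 18901 genes were called (56.7%), 5902 higher in VB6 (31.2%) and 4814 lower (25.5%). A limma fit on the deposited TPM values put 31.3% of its calls on the higher side, where the count fit put 55.1% there. With the correction 6162 of 16916 genes were called (36.4%), 3151 higher (18.6%) and 3011 lower (17.8%). Calls in the same direction in both fits numbered 2240 higher (13.2%) and 1781 lower (10.5%). The correction removed 5349 calls, added 1403, and turned the direction of 738 genes that were called in both fits. In 11994 of the 18901 genes, 63.5%, no VB6 library overlapped a vehicle library in CPM, the counts scaled by library size to a common total. The uncorrected log2 fold change followed GC content: its median was -0.58 in the class with the lowest GC content and 0.71 in the class with the highest, of 5 classes of equal number. After the correction the medians of the same GC classes were -0.01 and 0.01. A difference in how the libraries were made and a difference in the cells that tracks GC content cannot be told apart here, so both values are given for each gene, written as uncorrected and corrected log2 fold change of VB6 over vehicle.

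**Figure D2:**
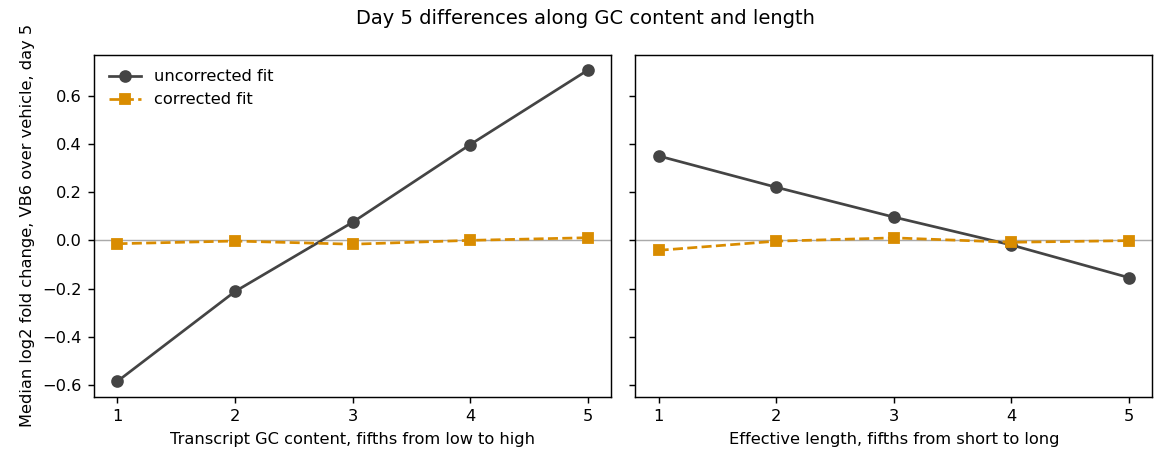
Median log2 fold change of VB6 over vehicle at day 5 in 5 classes of genes of equal number, ordered by GC content (left) and by effective length (right), without and with the correction. The uncorrected median runs between -0.58 at the lowest GC content and 0.71 at the highest, and the corrected one runs between -0.02 and 0.01 over the GC classes.

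Genes of the visceral endoderm and liver programme were higher in VB6 libraries at day 5. Of 24 listed genes 22 passed the filter on low counts, which used all 7 groups. Of these, 19 were called higher and 0 lower without the correction, with a median log2 fold change of 1.20, beside 0.05 over all tested genes. With the correction 21 were higher and 0 lower, 18 of them in both fits, with a median of 0.66, beside -0.005 over all genes. Alb, for serum albumin, and Serpina1a, for a protease inhibitor, were too low to test in these libraries. The summed level of the list was 5978, 5758 and 5427 CPM in VB6 libraries, against 4611, 4100 and 3984 CPM in vehicle libraries. At day 7, where the shorter fragments were in the VB6 arm, 8 members were called higher and 7 lower uncorrected (median -0.075). In bulk RNA more cells of a type and more RNA per cell cannot be told apart.

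Afp, the gene for alpha-fetoprotein (chr5:90490737-90508907, plus strand, mm10), stood at 301, 267 and 229 CPM in VB6 libraries, against 164, 130 and 127 CPM in vehicle libraries. All 3 VB6 libraries lay above all 3 vehicle libraries. The log2 fold change was 0.92 ± 0.12 (SE) uncorrected and 1.18 ± 0.10 corrected, with adjusted p of 8.3e-07 and 5.79e-09 by edgeR's quasi-likelihood test with Benjamini-Hochberg adjustment. Ttr, which encodes the thyroid hormone and retinol carrier transthyretin, had 94.7, 93.9 and 75.8 CPM in VB6 libraries, against 37.4, 34.4 and 36.7 CPM in vehicle libraries. The lowest VB6 library held more than any vehicle library, and the log2 fold change was 1.29 ± 0.10 uncorrected and 1.28 ± 0.09 corrected. Apoa1, the main protein of high-density lipoprotein (chr9:46228580-46230466, plus strand, mm10), had 118, 108 and 107 CPM in VB6 libraries, against 42.9, 36.2 and 38.9 CPM in vehicle libraries. Its groups were far apart too, with a log2 fold change of 1.5 ± 0.10 uncorrected that came to 0.76 ± 0.08 with the correction.

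The other secreted carriers divided by how much of their difference the correction left. Trf, the iron carrier transferrin, had 56.7, 49.7 and 42.1 CPM in VB6 libraries, against 22.5, 19.3 and 20.0 CPM in vehicle libraries, with log2 fold changes of 1.26 uncorrected and 0.93 corrected. Fgb, the fibrinogen beta chain, had 18.8, 14.2 and 15.3 CPM in VB6 libraries, against 8.10, 7.31 and 6.49 CPM in vehicle libraries, and its difference was larger with the correction, at 1.14 uncorrected and 1.55 corrected. The alpha chain Fga went with 0.87 and 0.85, and the gamma chain Fgg with 0.87 and 1.12, so all 3 fibrinogen chains were called higher in both fits. Apoe, a lipid carrier made by many cell types, had 1470, 1397 and 1379 CPM in VB6 libraries, against 489, 452 and 513 CPM in vehicle libraries. Its uncorrected log2 fold change of 1.55 came down to 0.50 with the correction. Amn, which anchors the cubilin uptake receptor at the apical membrane, showed the same pattern, with 102, 109 and 108 CPM in VB6 libraries, against 32.4, 33.7 and 33.4 CPM in vehicle libraries and log2 fold changes of 1.68 uncorrected and 0.56 corrected. Rbp4, the retinol-binding protein of plasma, fell between these cases at 1.63 uncorrected and 0.76 corrected.

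For Apob, Cubn, Lrp2 and Mttp the corrected value was the higher one, unlike for Apoa1, Apoe and Amn. Apob, the protein of the lipoprotein particles that yolk sac and liver export, had 958, 963 and 842 CPM in VB6 libraries, against 1090, 971 and 870 CPM in vehicle libraries. These ranges overlap, and the uncorrected log2 fold change of -0.09 ± 0.09 was not called (adjusted p = 0.464, edgeR quasi-likelihood test with Benjamini-Hochberg adjustment). The corrected value was 0.43 ± 0.08 and was called. The endocytic receptors Cubn and Lrp2 were likewise uncalled at -0.15 and 0.05 without the correction and called at 0.34 and 0.23 with it. Mttp, which loads lipid onto Apob, was called in both at 0.33 and 0.53. Ihh, a hedgehog ligand of this layer, was the single tested member that the corrected fit did not call, at 1.26 uncorrected and 0.27 corrected; without VB6 replicate 3 it was called there too, at 0.40.

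**Figure D3:**
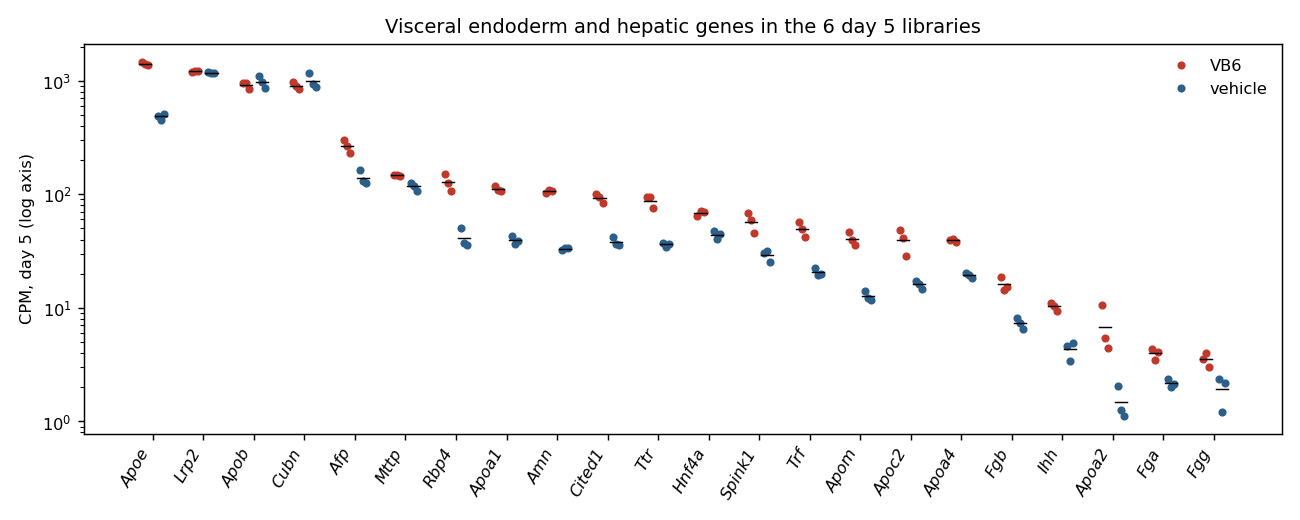
Members of the visceral endoderm and hepatic list that passed the filter: CPM in each day 5 library on a log axis, with VB6 in red on the left and vehicle in blue on the right for each gene and bars at the group means. The VB6 points of Afp, at 229 to 301 CPM, lie above the vehicle points, at 127 to 164 CPM, while those of Apob overlap.

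Several of these genes are textbook targets of the liver-enriched factors HNF1 and FOXA, so their promoters are shown for the letters they hold. RefSeq promoter windows (GRCm38.p6, 250 bases before to 50 after the start) were found for 21 of the 24 listed genes. They were searched on both strands for 4 short motifs. The first was GTTAAT, an arm of the palindromic HNF1 site. Next came TGTTTAC, the core of many FOXA sites. A known variant of that core, TGTTTGC, was searched as well. The last was AGATAA, which GATA factors bind. Capitals in the windows below mark the HNF1 arm or the FOXA variant on either strand, and no match printed there overlaps another. Afp, Apoa1 and Fgb are printed as examples that are called in both fits and hold matches. Fga and Apoc2, which hold the HNF1 arm, meet this too and are not printed. The same holds for Apoa2 and Rbp4 with TGTTTAC and for Hnf4a with AGATAA.
Afp, chr5:90490464-90490763, plus strand: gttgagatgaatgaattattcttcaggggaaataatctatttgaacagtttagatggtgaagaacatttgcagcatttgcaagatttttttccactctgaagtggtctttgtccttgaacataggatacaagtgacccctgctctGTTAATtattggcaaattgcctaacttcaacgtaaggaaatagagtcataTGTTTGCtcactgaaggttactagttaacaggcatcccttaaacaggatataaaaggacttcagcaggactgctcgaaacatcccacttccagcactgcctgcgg
Apoa1, chr9:46228380-46228679, plus strand: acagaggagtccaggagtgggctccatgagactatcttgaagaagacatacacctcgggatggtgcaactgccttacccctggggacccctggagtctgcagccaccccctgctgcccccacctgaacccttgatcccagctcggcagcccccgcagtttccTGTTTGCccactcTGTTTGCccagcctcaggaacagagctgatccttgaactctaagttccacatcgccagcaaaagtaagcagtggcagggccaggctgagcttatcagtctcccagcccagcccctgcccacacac
Fgb, chr3:83049814-83050113, minus strand: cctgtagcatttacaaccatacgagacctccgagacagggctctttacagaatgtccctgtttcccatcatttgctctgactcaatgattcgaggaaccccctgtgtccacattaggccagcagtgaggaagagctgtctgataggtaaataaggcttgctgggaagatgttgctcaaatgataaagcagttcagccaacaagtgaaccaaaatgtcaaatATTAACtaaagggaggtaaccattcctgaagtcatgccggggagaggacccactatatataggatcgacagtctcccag
In the Afp window the HNF1 arm begins 105 bases before the RefSeq start and the FOXA variant 55 bases before it. The Apoa1 window holds the FOXA variant at 88 and at 75 bases before the start, and the Fgb window holds the HNF1 arm on the reverse strand at 29 bases. The HNF1 arm occurred in 6 of 21 windows (28.6%; Fga, Fgb, Alb, Afp, Apoc2 and Serpina1a), beside 7.1% of 32851 promoters of the same length. The FOXA variant occurred in 5 of 21 (23.8%; Alb, Afp, Apoa1, Apob and Serpina1a), beside 5.07% of all promoters. TGTTTAC occurred in 2 of 21 (9.52%), beside 3.65%, and AGATAA in 1 of 21 (4.76%), beside 11.2%. Alb and Serpina1a, which hold both the HNF1 arm and the FOXA variant, were too low to test in these libraries. These counts describe letters in the windows and say nothing of binding.

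Of the genes of the factors themselves, some were called higher in both fits and others were not. Hnf4a, a nuclear receptor of liver and visceral endoderm, had 64.8, 71.4 and 69.4 CPM in VB6 libraries, against 47.1, 40.6 and 44.7 CPM in vehicle libraries, with log2 fold changes of 0.63 uncorrected and 0.29 corrected, both called. Foxa2, a pioneer factor of endoderm, had 19.5, 19.1 and 21.5 CPM in VB6 libraries, against 9.29, 10.7 and 8.73 CPM in vehicle libraries, a log2 fold change of 1.06 ± 0.12 uncorrected and 0.38 ± 0.11 corrected. Its corrected call was lost without vehicle replicate 3, where it came to 0.29 with an adjusted p of 0.0682 (edgeR quasi-likelihood test, Benjamini-Hochberg). Foxa3 was called in both at 0.98 and 0.56, with the corrected call lost at 0.36 without the same library and at 0.48 and 0.52 without VB6 replicate 1 or 2. The zinc finger factors Gata4 and Gata6, which start endoderm formation, lost their calls: Gata4 stood at 0.65 uncorrected and 0.15 corrected, and Gata6 at 0.31 uncorrected and -0.25 corrected. The uncorrected Gata6 call was also lost, at 0.27 to 0.31, without VB6 replicate 1 or 2 or vehicle replicate 2 or 3, and its corrected value was called at -0.32 without vehicle replicate 3.

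Basement membrane and primitive endoderm genes were the other endodermal group higher in VB6 libraries. Of 16 tested members of the primitive and parietal endoderm list 12 were called higher and 1 lower without the correction (median 0.54), and 11 higher and 1 lower with it (median 0.38). The list summed to 4829, 4902 and 4945 CPM in VB6 libraries, against 3241, 2952 and 2810 CPM in vehicle libraries. Col4a1 and Col4a2, the paired chains of the common type IV collagen, stood at 815, 863 and 893 CPM and at 563, 570 and 602 CPM in VB6 libraries, against 382, 316 and 307 CPM and 210, 186 and 172 CPM in vehicle libraries. Both were clear of overlap, with log2 fold changes of 1.35 ± 0.11 and 1.61 ± 0.10 uncorrected and 0.89 ± 0.08 and 0.91 ± 0.08 corrected. The laminin chains that assemble with them were also higher: Lama1 had 397, 414 and 431 CPM in VB6 libraries, against 237, 199 and 186 CPM in vehicle libraries, with log2 fold changes of 0.996 uncorrected and 0.72 corrected. Lamb1 and Lamc1 changed less, at 0.66 and 0.43 uncorrected, and kept nearly the same values with the correction, 0.61 and 0.38, but on the deposited TPM values Lamc1 stood at -0.06. Sox17, an endoderm transcription factor (chr1:4490931-4497354, minus strand, mm10), had 28.1, 33.1 and 36.3 CPM in VB6 libraries, against 11.9, 10.5 and 8.95 CPM in vehicle libraries, and a log2 fold change of 1.63 ± 0.13 uncorrected and 1.01 ± 0.11 corrected. The member called lower was Fst, the activin-binding protein follistatin, at -0.66 uncorrected and -0.55 corrected.

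Epithelial keratins and contractile and fibrillar matrix genes went with them. Krt8, a keratin of simple epithelia that embryonic endoderm and trophoblast both make, had 429, 436 and 519 CPM in VB6 libraries, against 196, 196 and 188 CPM in vehicle libraries, with log2 fold changes of 1.25 uncorrected and 0.63 corrected. Its partner Krt18 stood at 1.13 and 0.46. In the smooth muscle and actin list 11 of 13 tested genes were called higher and 0 lower without the correction (median 0.86), and 10 higher and 0 lower with it (median 0.41). Acta2, the smooth muscle actin, had 34.3, 39.0 and 40.9 CPM in VB6 libraries, against 11.7, 14.4 and 14.9 CPM in vehicle libraries, and nearly the same log2 fold change in both fits, 1.48 ± 0.13 uncorrected and 1.36 ± 0.12 corrected. In the fibroblast matrix list 10 of 15 tested genes were called higher and 0 lower uncorrected (median 0.83), and 6 of 14 higher and 0 lower corrected (median 0.77). Col1a1 and Col1a2, the chains of type I collagen, had 19.5, 25.2 and 28.9 CPM and 14.0, 15.3 and 18.9 CPM in VB6 libraries, against 6.75, 5.36 and 5.04 CPM and 4.86, 5.01 and 5.15 CPM in vehicle libraries. Those are log2 fold changes of 2.10 and 1.68 uncorrected and 1.56 and 1.93 corrected. Both collagen genes were low at day 5 in either arm beside vehicle day 7, where they averaged 188 and 319 CPM. At day 7, where the shorter fragments were in the VB6 arm, the smooth muscle and actin list counted 1 higher and 5 lower uncorrected (median -0.12). The fibroblast matrix list then counted 4 higher and 2 lower (median 0.085).

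Lists of other germ layers, like every list here, are read beside the shares over all tested genes. These were 31.2% higher and 25.5% lower uncorrected, and 18.6% and 17.8% corrected. Of 10 tested blood and endothelium genes 1 was called higher and 0 lower uncorrected and none corrected, and the list summed to 34.1, 34.5 and 38.8 CPM in VB6 libraries, against 34.2, 34.2 and 34.7 CPM in vehicle libraries. Of 12 tested neural ectoderm genes 3 were higher and 2 lower uncorrected, and of 11 with the correction 2 were higher and 3 lower. Of 9 tested mesoderm genes 3 were higher and 0 lower uncorrected, and 0 higher and 1 lower corrected. In the definitive endoderm list, which shares Sox17, Foxa2, Gata4, Gata6, Hnf4a and the keratins with the groups above, 11 of 16 were higher and 3 lower uncorrected and 7 higher and 2 lower corrected.

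Formative and primitive streak genes were called in both directions without the correction, and lower but never higher with it. Of 12 tested formative epiblast genes 6 were called higher and 3 lower uncorrected (median 0.25), and 0 higher and 8 lower corrected (median -0.35). Otx2, the homeobox factor of the formative state (chr14:48657677-48673819, minus strand, mm10), had 128, 137 and 133 CPM in VB6 libraries, against 191, 184 and 188 CPM in vehicle libraries. Its log2 fold change of -0.50 ± 0.07 uncorrected was -0.53 ± 0.06 corrected, so the correction hardly moved it. The growth factor gene Fgf5 was lower by less, at 116, 120 and 118 CPM in VB6 libraries, against 134, 141 and 137 CPM in vehicle libraries, with log2 fold changes of -0.22 ± 0.09 uncorrected and -0.23 ± 0.08 corrected. Both values sat near the threshold: the uncorrected call was lost, at -0.20 to -0.23, without any library but vehicle replicate 1, and the corrected one without VB6 replicate 1 or 3 or vehicle replicate 2 or 3, at -0.21 to -0.22. The de novo methyltransferase gene Dnmt3b was at -0.30 uncorrected and -0.57 corrected, while the POU factor gene Pou3f1 was at 0.87 uncorrected and -0.10 corrected, called only in the first.

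Primitive streak genes are switched on where epiblast turns to mesoderm and endoderm. Of 11 tested, 1 was called higher and 3 lower uncorrected (median 0.13, of the other sign), and 0 higher and 5 lower corrected (median -0.65). T, for brachyury (chr17:8434423-8442496, plus strand, mm10), was low in every library, at 1.40, 1.39 and 0.625 CPM in VB6 libraries, against 3.62, 5.47 and 2.24 CPM in vehicle libraries, a log2 fold change of -1.70 ± 0.39 uncorrected and -2.12 ± 0.38 corrected. Eomes, a T-box factor of streak and endoderm, had 25.4, 33.5 and 33.9 CPM in VB6 libraries, against 41.3, 41.2 and 40.7 CPM in vehicle libraries. Its log2 fold change was -0.41 ± 0.12 uncorrected and -0.90 ± 0.09 corrected, and without VB6 replicate 1 the uncorrected call was lost (-0.28, adjusted p = 0.0526 by edgeR's quasi-likelihood test with Benjamini-Hochberg adjustment). Mixl1, a homeobox gene of the streak, was called lower in both at -0.69 and -0.65, but its uncorrected call was lost without VB6 replicate 1 (-0.64) or vehicle replicate 2 (-0.68) and its corrected call without any 1 of the 6 libraries (-0.60 to -0.69).

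The pluripotency genes split in both directions. Of 13 tested core members 7 were called higher and 3 lower uncorrected (median 0.20), and 2 higher and 7 lower corrected (median -0.17). Sox2 (chr3:34650405-34652461, plus strand, mm10), shared by pluripotent and neural cells, had 130, 131 and 141 CPM in VB6 libraries, against 62.5, 60.5 and 61.4 CPM in vehicle libraries, a log2 fold change of 1.12 ± 0.11 uncorrected and 0.99 ± 0.09 corrected. Nanog (chr6:122707489-122714633, plus strand, mm10), a factor of the pluripotent state, was lower, with 95.9, 108 and 102 CPM in VB6 libraries, against 147, 159 and 145 CPM in vehicle libraries and log2 fold changes of -0.56 ± 0.08 and -0.33 ± 0.07. Cripto, the Nodal co-receptor, was lower by more, with 93.2, 89.2 and 85.6 CPM in VB6 libraries, against 169, 170 and 172 CPM in vehicle libraries and log2 fold changes of -0.93 ± 0.07 and -0.79 ± 0.06. So Sox2 on one side and Nanog and Cripto on the other differed in opposite directions in both fits. For Pou5f1, which encodes Oct4, the direction depended on the correction: 257, 266 and 283 CPM in VB6 libraries, against 198, 195 and 228 CPM in vehicle libraries, gave 0.38 ± 0.08 uncorrected and -0.21 ± 0.06 corrected, each called, the second not without vehicle replicate 3 (-0.16). Of 15 tested naive pluripotency genes 7 were higher and 1 lower uncorrected and 5 higher and 1 lower corrected, with Zfp42, also called Rex1, at 0.51 and 0.65 and Fgf4 at -0.52 and -0.67.

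**Figure D4:**
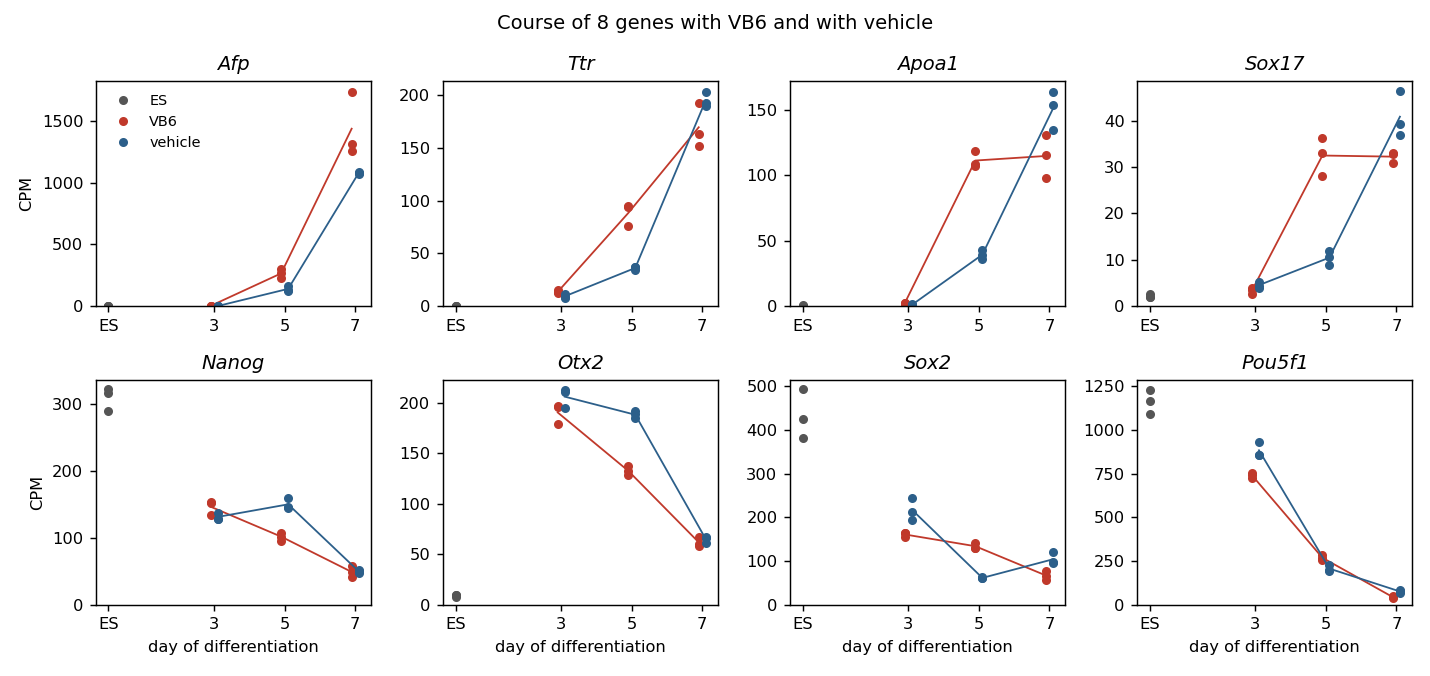
CPM (linear axes) of Afp, Ttr, Apoa1, Sox17, Nanog, Otx2, Sox2 and Pou5f1 over days 3, 5 and 7 in VB6 (red) and vehicle (blue) libraries, with the undifferentiated cells (ES, grey) at the left; points are libraries and lines join group means. At day 5 Afp averaged 265.8 CPM in VB6 and 140.3 CPM in vehicle, and Otx2 averaged 133 CPM in VB6 and 188 CPM in vehicle.

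Signalling lists were read through their targets. Of 13 tested genes of the BMP list 9 were called higher and 0 lower uncorrected (median 0.90), and 7 higher and 1 lower corrected (median 0.41). Id3, an inhibitor of basic helix-loop-helix factors and a direct BMP target, had 65.2, 66.0 and 68.4 CPM in VB6 libraries, against 26.2, 24.0 and 26.3 CPM in vehicle libraries, with log2 fold changes of 1.38 ± 0.07 uncorrected and 0.68 ± 0.06 corrected. Id1 went with it at 1.14 and 0.43, and the ligand gene Bmp2 at 0.92 and 0.69. In the FGF and ERK list 3 of 13 were higher and 5 lower uncorrected, although the median was 0.20, and 2 higher and 9 lower corrected (median -0.23). Its feedback phosphatase Dusp6 and its ETS factor Etv5 were lower in both, at -0.23 and -0.21 and at -0.23 and -0.39. The Dusp6 calls were lost without VB6 replicate 1 (-0.18 uncorrected, -0.17 corrected) or vehicle replicate 2 (-0.17 and -0.15). For Nodal pathway genes the count again turned with the correction, with 6 higher and 2 lower of 12 uncorrected, and 0 higher and 6 lower corrected. Immediate early genes counted 9 higher and 2 lower of 17 uncorrected and 8 higher and 3 lower corrected, and their members disagreed: Junb stood at 1.61 and 0.61 and Atf3 at 1.13 and 0.93, whereas Fos stood at -0.60 and -1.03 and Egr1 at -0.61 and -1.05. At day 7, where the shorter fragments were in the VB6 arm, uncorrected counts differed. The BMP list then gave 0 higher and 5 lower, and the immediate early list 0 higher and 14 lower.

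Genes that handle the vitamin itself had no direction common to both fits. Of 9 tested, 4 were called higher and 2 lower uncorrected (median 0.20) and 2 higher and 3 lower corrected (median -0.16). Pdxk, which phosphorylates pyridoxine, averaged 26.9 ± 1.27 CPM in VB6 and 22.7 ± 2.03 CPM in vehicle (SD, n = 3 each), with a log2 fold change of 0.25 ± 0.08 uncorrected that was called and -0.06 ± 0.08 corrected that was not. Without vehicle replicate 2 the first came to 0.18 and was not called. The phosphatase gene Pdxp was called in opposite directions, at 0.38 and -0.57, and the vitamin transporter gene Slc19a2 was lower in both, at -0.39 and -0.36. Among 39 tested enzymes that carry pyridoxal phosphate 21 were higher and 6 lower uncorrected (median 0.26), and 9 higher and 8 lower corrected (median 0.06). Gad1, a glutamate decarboxylase, was lower in both fits at -1.03 and -1.08.

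Energy metabolism split into groups that the correction treated differently. Of 35 tested oxidative phosphorylation genes encoded in the nucleus 31 were called higher and 3 lower uncorrected (median 0.60), and 21 higher and 3 lower corrected (median 0.23). Cox6a1, a subunit of cytochrome oxidase, had 120, 118 and 104 CPM in VB6 libraries, against 41.3, 39.96 and 43.5 CPM in vehicle libraries, but its log2 fold change of 1.46 came to 0.28 with the correction. Ndufb8, of complex I, stood at 1.11 and 0.47. At day 7, where the shorter fragments were in the VB6 arm, the oxidative phosphorylation list counted 0 higher and 31 lower uncorrected (median -0.54). The glycolysis list counted 2 higher and 14 lower there (median -0.19). At day 5 the 13 mitochondrially encoded genes counted 2 higher and 9 lower uncorrected (median -0.69) and 3 higher and 4 lower corrected (median 0.06). Glycolysis genes counted 13 higher and 2 lower of 24 uncorrected (median 0.25) and 4 higher and 10 lower corrected (median -0.11). Ldha, which makes lactate, had 1639, 1685 and 1634 CPM in VB6 libraries, against 1459, 1540 and 1626 CPM in vehicle libraries, with a log2 fold change of 0.10 ± 0.05 that was not called and a corrected one of -0.22 ± 0.04 that was. Without vehicle replicate 3 the uncorrected value was called at 0.14. Hk2, the inducible hexokinase, stood at 0.12 and -0.15, the second not called without VB6 replicate 3 (-0.11) or vehicle replicate 2 (-0.15) or 3 (-0.14), and Pkm, the pyruvate kinase, at 0.43 and -0.02. Among writers and erasers of histone lactylation and acetylation 8 of 18 were higher and 6 lower uncorrected and 2 higher and 5 lower corrected. The acetyltransferase gene Ep300 averaged 242.5 ± 11.9 CPM in VB6 and 291 ± 6.83 CPM in vehicle, with -0.26 ± 0.06 uncorrected and -0.18 ± 0.04 corrected, both called.

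Hypoxia-response genes were lower in VB6 libraries in both fits more often than higher. Of 17 tested, 3 were called higher and 7 lower uncorrected (median -0.22), and 3 higher and 9 lower corrected (median -0.31). Ero1a, an oxidase of the endoplasmic reticulum induced by HIF-1, had 334, 340 and 268 CPM in VB6 libraries, against 614, 660 and 644 CPM in vehicle libraries, log2 fold changes of -1.03 ± 0.12 uncorrected and -0.51 ± 0.09 corrected. Bnip3, a mitophagy receptor, had 318, 298 and 256 CPM in VB6 libraries, against 483, 504 and 469 CPM in vehicle libraries, with -0.74 ± 0.08 and -0.66 ± 0.07. At day 7, where the shorter fragments were in the VB6 arm, 7 of the 17 were called higher and 1 lower, with Ero1a at 0.61 and Bnip3 at 0.22.

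Cytosolic ribosomal protein genes made up the list with the most calls. Of 85 tested, 80 were higher and 3 lower uncorrected (median 0.83), and 64 higher and 6 lower corrected (median 0.36). Rps7, of the small subunit, had 662, 610 and 618 CPM in VB6 libraries, against 126, 138 and 143 CPM in vehicle libraries, with log2 fold changes of 2.22 uncorrected and 1.94 corrected. Rpl10, Rpl5 and Rps12 were the 3 called lower, Rps12 at -0.25 and not without VB6 replicate 3 (-0.18) or vehicle replicate 2 (-0.21) or 3 (-0.24). At day 7 the count was 1 higher and 82 lower, and Rps7 stood at -1.68. Many ribosomal protein genes have processed pseudogene copies, and the part of shared reads or of fragment length in these differences was not tested.

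**Figure D5:**
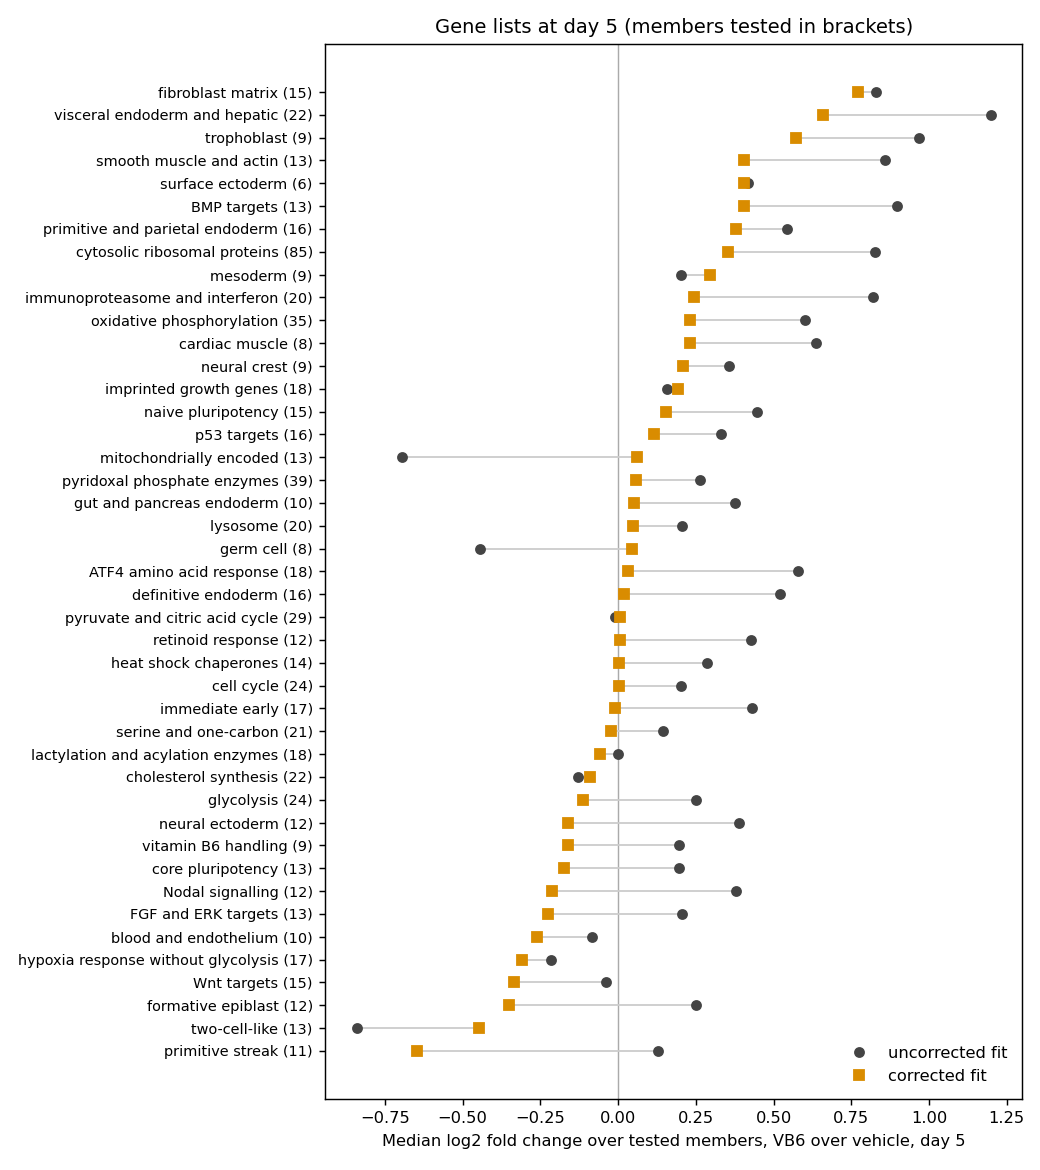
Median log2 fold change of VB6 over vehicle at day 5 over the tested members of each of the 43 gene lists, uncorrected (circles) and corrected (squares), ordered by the corrected value. The visceral endoderm list lies at 1.20 and 0.66 and the list of Zscan4 and other 2-cell stage genes at -0.84 and -0.45, while the formative epiblast list lies at 0.25 and -0.35.

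Placed along the course that vehicle cells follow, VB6 libraries at day 5 lay further on than vehicle libraries. On a scale where vehicle day 3 is 0 and vehicle day 7 is 1, computed without any day 5 library, the VB6 libraries stood at 0.6367, 0.6347 and 0.6518 and the vehicle libraries at 0.4999, 0.5038 and 0.4924. The mean difference was 0.142, and the exact two-sided permutation test gave p = 0.1, the smallest it allows. With corrected values the difference was 0.106, and on a line from undifferentiated cells to vehicle day 3 it turned to -0.077; on a line from undifferentiated cells to vehicle day 7 it was 0.052. Among 1145 genes that rose by at least 2 on the log2 scale in vehicle between day 3 and day 7, 504 were called higher and 60 lower in VB6 at day 5, with a median log2 fold change of 0.56. With the correction 361 of 1063 were higher and 29 lower (median 0.34). Among 1316 genes that fell by at least 2 on the log2 scale over the same interval 98 were higher and 351 lower (median -0.32), and with the correction 36 of 1000 were higher and 240 lower (median -0.32). Over all tested genes 31.2% were called higher and 25.5% lower uncorrected, and 18.6% and 17.8% corrected. The uncorrected share of lower calls among falling genes was thus near that over all genes, while their share of higher calls was below it. The genes described earlier keep to the order along the vehicle course with exceptions. Afp averaged 0.919 CPM at vehicle day 3 and 1080 CPM at vehicle day 7, Nanog 131 and 50.01 CPM, and Otx2 206 and 65.1 CPM. For Nanog, however, every vehicle day 5 library lay above the vehicle day 3 mean, outside the span of those days. Sox2 averaged 218 CPM at vehicle day 3 and 104 CPM at vehicle day 7, and its vehicle day 5 mean of 61.5 CPM lay below both. T averaged 0.492 CPM at vehicle day 3 and 5.12 CPM at vehicle day 7, and at day 5 it averaged 1.14 CPM in VB6 and 3.78 CPM in vehicle, so here the VB6 libraries were the ones nearer to day 3.

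A count over all genes set the day 5 means beside the vehicle day 3 and day 7 means. It used uncorrected CPM, so differences between libraries that follow GC content and length enter it, and their part was not tested. In 31.5% of the 18901 tested genes the VB6 day 5 mean lay inside the span of the vehicle day 3 and day 7 means while the vehicle day 5 mean lay outside it, and in 6.76% it was the other way round. Among genes called higher these shares were 44.0% and 5.66%, and among genes called lower 44.4% and 5.07%. Among genes called higher in both fits they were 46.6% and 3.48%. Called genes were picked on the same day 5 values, so their shares are not separate evidence.

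For many genes the VB6 difference at day 5 departed from that at the other days. Testing whether the effect of VB6 at day 5 differed from that at day 3 called 9070 genes (48.0%), and testing it against day 7 called 10910 genes (57.7%), by edgeR's quasi-likelihood test with Benjamini-Hochberg adjustment. With the correction these were 4635 (27.4%) and 6547 (38.7%) of 16916 genes. At day 7 VB6 was called higher in 3524 genes (18.6%) and lower in 3375 (17.9%) uncorrected, and higher in 2151 (12.7%) and lower in 2385 (14.1%) corrected. At day 3 the calls in either direction were 805 genes (4.26%) uncorrected and 1234 (7.29%) corrected. Of the 4021 genes called in both fits at day 5, 257 were called at day 3 uncorrected, 97 of them in the same direction, and 2419 at day 7, 119 of them in the same direction. With the corrected fits of those days, 417 were called at day 3, 174 in the same direction, and 1845 at day 7, 213 in the same direction. The groups compared at day 3, day 5 and day 7 share no libraries.

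Because the arm with short fragments changes between day 5 and day 7, the genes that held their direction over both days were counted, a rule chosen after values were seen. Of 16916 genes 81 were higher (0.479%) and 38 lower (0.225%) in both fits at day 5 and in the uncorrected fit at day 7. Asking for the corrected call at day 7 too left 56 higher (0.331%) and 27 lower (0.16%). The visceral endoderm list gave 6 of its 22 tested members (27.3%) and the primitive and parietal endoderm list 5 of 16 (31.2%), and with the corrected call at day 7 these were 3 and 5. Afp was at 0.92 uncorrected at day 5 and at 0.41 uncorrected and 0.26 corrected at day 7, the last not called (adjusted p = 0.0504, edgeR), with 1439 ± 261 CPM in VB6 and 1080 ± 7.72 CPM in vehicle at day 7 (SD, n = 3 each). Trf, Fgb, Lama1, Acta2 and the imprinted growth factor gene Igf2 were also among the 81. Fgb was not called at day 7 with the correction, at 0.18 (adjusted p = 0.295, edgeR). Fos, Egr1 and the survival factor gene Mcl1 were among the 38. Igf2 had 322, 304 and 312 CPM in VB6 libraries at day 5, against 168, 139 and 138 CPM in vehicle libraries, with log2 fold changes of 1.07 uncorrected and 0.69 corrected at day 5, and 0.34 and 0.45 at day 7. Apoa1 was not among them: at day 7 it was called lower at -0.39 uncorrected, and stood at 0.06, not called, with the correction. Ttr was not called at day 7, at -0.20 and -0.12.

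Among the 12 highest and 12 lowest differences, 7 belonged to genes with a near-identical or overlapping partner, between which the authors' expected counts could move reads. Erhrt-ps, Srp54b, Exosc6 and Ftl1-ps1 led the higher side, at uncorrected log2 fold changes of 6.87, 5.89, 4.99 and 4.62. Srp54b, a copy of the signal recognition particle gene Srp54, averaged 19.2 CPM in VB6 and 0.309 CPM in vehicle, but Srp54 copies summed to 145.9 CPM in VB6 and 185.7 CPM in vehicle. Ftl1-ps1 and the ferritin light chain gene Ftl1 also differed as a sum, at 223 CPM in VB6 and 17.8 CPM in vehicle. Erhrt-ps and its partner Erh summed to 233.3 CPM in VB6 and 188.5 CPM in vehicle. For Pam16l and its partner Pam16 the sums were 15.89 CPM in VB6 and 8.97 CPM in vehicle. On the lower side Snurf, which shares its transcript with Snrpn, had 0 counts in all VB6 libraries, against 52, 26 and 16 counts in vehicle libraries, at least 10.4-fold lower against a floor of 3 counts in each library. Snurf and Snrpn together summed to 260 CPM in VB6 and 231.7 CPM in vehicle, so the summed pair was not lower. Rnaset2b and Commd1b followed at -2.90 and -2.19, the corrected Commd1b call being lost at -1.27 to -1.85 without VB6 replicate 2 or 3 or vehicle replicate 2 or 3, and their copies summed to 34.0 and 36.8 CPM in VB6 and 28.3 and 39.2 CPM in vehicle. No partner was looked up for the other 17. Of these Or2y16, an olfactory receptor gene, averaged 163 CPM in VB6 and 14.2 CPM in vehicle, at 3.52 uncorrected and 3.74 corrected. H2ac7, a histone gene, was higher at 3.15 and 2.09, and S100g, a vitamin D-dependent calcium carrier, at 2.97 and 2.76. On the lower side the olfactory receptor gene Or8b48 stood at -2.56 and -1.41, and the T cell kinase gene Prkcq at -2.38 and -2.26. Cryab, a small heat shock protein gene picked after values were seen for its level above 10 CPM, had 20.6, 20.9 and 20.6 CPM in VB6 libraries, against 4.54, 5.53 and 5.65 CPM in vehicle libraries, with 1.98 uncorrected and 1.37 corrected. At day 7, where the shorter fragments were in the VB6 arm, several of these genes differed in the opposite direction. Uncorrected log2 fold changes there were -10.3 for Erhrt-ps, -6.3 for Srp54b, -4.92 for Exosc6, -5.36 for Ftl1-ps1 and -1.46 for Or2y16. Rnaset2b stood at 2.08 and Commd1b at 1.73, while Cryab at -0.24 was not called. The part of fragment length in these differences was not tested.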

How the data were processed

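The authors deposited expected counts, TPM and FPKM per gene for 21 libraries, aligned to mm10 per the submitters' processing notes; no source used here names the aligner, counter, annotation or strand setting. The expected counts were rounded to whole numbers, and 21909 of 78317 rows carry no gene symbol. Implied fragment length came from count, FPKM and library total.

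Counts were fitted in edgeR 4.0.16 (R 4.3.3) with TMM scaling, filterByExpr and the quasi-likelihood test over all 7 groups, checked on simulated data. The correction was a robust spline per library, with 5 degrees of freedom for each property, over GC content and log2 effective length, as an offset. GC content came from GENCODE M21 and effective length from deposited count, FPKM and library total. The spline was fitted on genes with mean CPM of at least 1 and applied to all 16916 genes with both properties. Limma 3.58.1 on TPM and DESeq2 1.42.0 were alternatives. CPM values are uncorrected. Standard errors come from the quasi-likelihood fit and carry the spread between libraries that it estimated over all 7 groups. Floors cover counting error only.

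The 43 gene lists and the members were chosen with earlier results of these data known. Genes named were the 12 highest and 12 lowest called in both fits, up to 4 per described list and 22 fixed genes; other list members are examples chosen after their values were seen, and some genes are not reported here. Same-numbered libraries showed little shared deviation, so no block was used.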

Additional observations from a re-analysis of the deposited data

Results flagged for a closer look

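Among the 22 genes of the fixed set, the VB6 difference at day 5 departed from that at another day for those given here, by edgeR's quasi-likelihood test of the difference itself over all 18901 genes with Benjamini-Hochberg adjustment. Values are the log2 fold change at day 5 minus that at the other day. Against day 3 the endoderm genes were higher at day 5, with Sox17 at 2.06, Foxa2 at 1.31, Ttr at 0.75, Gata6 at 0.632 and Gata4 at 0.586, and Apob lower at -0.439. Of the pluripotency and streak genes Sox2 stood at 1.56 and Pou5f1 at 0.632, and T at -1.95, Nanog at -0.717 and Otx2 at -0.39. The metabolic and vitamin genes followed with Alpl at 0.786, Pkm at 0.537, Pdxk at 0.322, Hk2 at 0.31, Ldha at 0.214 and the acetyltransferase Ep300 at -0.236. The adjusted p ran from 2.13e-08 for Sox2 to 0.0258 for T. With the correction T, Sox2, Nanog, Otx2, Sox17, Ttr, Ep300 and, at an adjusted p of 0.0489, Foxa2 were still called, and the other 9 given were not.

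Against day 7 the visceral endoderm genes stood at 1.89 for Apoa1, 1.49 for Ttr and 0.508 for Afp, with Sox17 at 1.97, Foxa2 at 1.23, Gata4 at 0.461 and Apob at -0.815. Sox2 was at 1.75, Pou5f1 at 1.18 and Fgf5 at 0.477, while T was at -1.71, Nanog at -0.535 and Otx2 at -0.433. Pkm was at 0.946, Pdxk at 0.341, Ldha at 0.288, Hk2 at 0.235 and Ep300 at -0.476. The adjusted p ran from 8.2e-11 for Apoa1 to 0.0156 for Pdxk. With the correction Sox2 came to 1.6, Ttr to 1.41, Sox17 to 1.02, Afp to 0.92 and Apoa1 to 0.695, all called, whereas Ldha was called on the other side at -0.185 and Nanog, Foxa2, Gata4, Apob, Hk2 and Pdxk were not called. The arm with short fragments differs between day 5 and day 7, and its part in the differences between these days was not tested. With 3 libraries in each group, single values were not tested for a library far from the others.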

How the results depend on the processing

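The correction for GC content and length cut the calls to 6162 genes (3151 higher, 3011 lower), and correcting for length alone left 9936 (4904 and 5032). It turned the log2 fold change of 17 named genes, to -0.21 for Pou5f1, -0.25 for Gata6, 0.43 for Apob, -0.22 for Ldha, -0.15 for Hk2, -0.0215 for Pkm, -0.0553 for Pdxk, -0.34 for Alpl, -0.18 for Utf1, -0.10 for Pou3f1, -0.41 for Sox3, 0.0334 for Hdac2, -0.57 for Pdxp, -0.10 for Lefty1, -0.0538 for Nodal, 0.34 for Cubn and 0.00425 for Spred1. With length alone corrected, 14 stood apart from the full correction, at 0.0676 for Pou5f1, 0.30 for Gata6, 0.17 for Hk2, 0.35 for Pkm, 0.38 for Pdxk, 0.12 for Alpl, 0.66 for Utf1, 0.93 for Pou3f1, 0.65 for Sox3, -0.60 for Hdac2, 0.22 for Pdxp, 0.50 for Lefty1, 0.34 for Nodal and -0.47 for Spred1. Limma on log2 TPM, whose median over all genes was -0.16, called 3018 genes higher, 31.3% of its calls, and gave -0.25 for Pou5f1, -0.0849 for Gata4, -0.68 for Ldha, -0.42 for Hk2, -0.0382 for Pdxk, -0.17 for Pfkl, -0.25 for Krt7, -0.0584 for Lamc1 and -0.30 for Lrp2. Differences of the VB6 effect between days fell to 4635 genes against day 3 and 6547 against day 7 with the correction, and the median of genes that rose in vehicle to 0.34. The cause was not tested.

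The position along the vehicle course differed by 0.130 with a prior count of 0.5, 0.106 with the correction, 0.167 over genes with mean CPM of at least 10, 0.052 on the line from undifferentiated cells to vehicle day 7 (0.064 corrected), and -0.077 on the line from undifferentiated cells to vehicle day 3. Leaving out 1 library at a time gave 9770 to 10199 calls (5374 to 5670 higher, 4396 to 4535 lower), 5240 to 5433 with the correction (2675 to 2817 and 2543 to 2628), and 0.137 to 0.146 for the position. Over these refits 21 uncorrected calls of named genes were lost and 1 gained, and 62 corrected ones lost and 2 gained. DESeq2 did not call Snurf, Commd1b and H2bc24.

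Same-numbered libraries of the VB6 and vehicle arms had correlations of -0.002, 0.024 and 0.063 in their deviations from the group means. Libraries of different numbers had -0.056 to 0.038. These small values show no clear pairing by number and cannot exclude one. Fitted on the 6 day 5 libraries alone the calls were 10730 (5545 higher, 5185 lower), and with a replicate block added 10937 (5650 and 5287). With the correction these were 6390 (2695 and 3695), and 6481 with block and correction together (2733 and 3748).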

Other observations

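List counts in this section are for day 5 unless another day is named. They are read beside the shares over all tested genes, 31.2% higher and 25.5% lower uncorrected, and 18.6% and 17.8% corrected. Counts near those shares are no result about a list. Imprinted genes with roles in growth were called in both directions. Of 18 tested, 10 were higher and 5 lower uncorrected (median log2 fold change 0.16), and 9 higher and 5 lower corrected (0.19). H19, a noncoding RNA from the Igf2 locus that is abundant in fetal endoderm and mesoderm, had 619, 597 and 568 CPM in VB6 libraries, against 306, 278 and 269 CPM in vehicle libraries, with log2 fold changes of 1.06 and 0.60. Meg3, a maternally expressed noncoding RNA, stood at 0.70 and 0.30, while the zinc finger gene Plagl1 was lower at -1.41 and -1.57. Antigen processing and interferon genes counted 14 higher and 1 lower of 20 uncorrected (0.82) and 8 higher and 2 lower corrected (0.25). Bst2, a membrane protein induced by interferon, had 164, 160 and 140 CPM in VB6 libraries, against 59.0, 58.9 and 62.3 CPM in vehicle libraries, with 1.36 and 0.49, and at day 7 it was lower in VB6 at -1.29. For the whole list the uncorrected count at day 7 was 0 higher and 16 lower. Amino acid response genes counted 12 higher and 3 lower of 18 uncorrected (0.58), and 4 higher and 5 lower corrected (0.03), with Cebpb at 1.91 and 0.57. Uncorrected at day 7 this list counted 3 higher and 10 lower. Cholesterol synthesis genes counted 8 higher and 11 lower of 22 uncorrected (-0.13) and 1 higher and 8 lower corrected (-0.09), and Idi1, an isomerase of that pathway, had 118, 122 and 108 CPM in VB6 libraries, against 209, 238 and 243 CPM in vehicle libraries, with -0.99 and -0.41.

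Trophoblast genes counted 6 higher and 1 lower of 9 uncorrected (0.97) and 4 higher and 2 lower corrected (0.57), most of them low, such as Esx1 with 6.38, 5.76 and 6.06 CPM in VB6 libraries, against 2.59, 2.25 and 2.18 CPM in vehicle libraries. Genes of the 2-cell stage counted 0 higher and 5 lower of 13 uncorrected (-0.84), and 0 higher and 2 lower corrected (-0.45). They include near-identical Zscan4 copies, of which Zscan4b stood at -0.92 and -0.63, its corrected call being lost without vehicle replicate 1 (-0.46). Germ cell genes counted 1 higher and 4 lower of 8 (-0.44), and 1 and 1 corrected (0.04). Cardiac muscle genes counted 3 higher and 0 lower of 8 (0.64), and 2 and 0 of 7 corrected (0.23). Gut and pancreas genes counted 3 higher and 1 lower of 10 (0.38), and 1 and 0 corrected (0.05). Surface ectoderm genes counted 3 and 0 of 6 (0.42), and 2 and 0 of 5 corrected (0.41), and neural crest genes 1 and 0 of 9 (0.36), and 1 and 2 corrected (0.21). Counted in the same way, higher then lower, uncorrected then corrected, Wnt targets gave 4 and 3 of 15, then 2 and 6 of 14. Retinoid response genes gave 4 and 1 of 12, then 2 and 1, p53 targets 9 and 6 of 16, then 6 and 3, and heat shock chaperones 8 and 4 of 14, then 5 and 2. Citric acid cycle genes gave 11 and 9 of 29, then 8 and 5, serine and folate genes 11 and 5 of 21, then 6 and 5, lysosome genes 13 and 4 of 20, then 4 and 5, and cell cycle genes 13 and 9 of 24, then 4 and 5.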
